A study of Mus musculus with 2 samples.

Results

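The transcription factors that establish and maintain hepatocyte identity were followed in livers of L-Lpcat3 KO mice on a western diet. They were the nuclear receptor gene Hnf4a, the forkhead genes Foxa1, Foxa2 and Foxa3, the C/EBP genes Cebpa and Cebpb, and the homeobox genes Onecut1 and Prox1. Every probe set that the platform annotation assigned to these 8 genes was taken, which gave 15 of the 45101 probe sets. L-Lpcat3 KO mice carry Lpcat3fl/fl and Albumin-Cre and lose Lpcat3, which reacylates lysophospholipids, in cells where the albumin promoter drives Cre, and therefore chiefly in hepatocytes. The controls were Lpcat3fl/fl mice without Cre, so both genotypes carried the floxed alleles, and Cre itself cannot be told apart from the loss of Lpcat3. All mice were 16-week-old males that ate western diet from week 7 of life, 9 weeks in all, and went without food for 6 hr before harvest. Liver RNA of 5 mice per genotype was pooled and each pool was hybridised to 1 Affymetrix array. Signals below are linear MAS5 intensities. With 1 pool per genotype there is no replicate check, no error between mice and no p-value, and the number of arrays limits the precision.

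Hepatocyte genes are controlled by a small set of factors that bind together at liver enhancers and promoters and that also act on each other's genes. FOXA proteins open compacted chromatin early in liver development. HNF4A is a nuclear receptor that maintains the adult hepatocyte programme, including apolipoprotein, clotting factor and bile acid genes. C/EBPalpha favours metabolic genes of the quiescent liver, whereas C/EBPbeta is also a factor of the acute phase response and of myeloid cells. ONECUT1 (HNF6) acts in hepatocytes and in bile duct cells, and PROX1, which is also the identity factor of lymphatic endothelium, acts as a corepressor of HNF4A and of the bile acid regulator NR5A2.

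Both arrays had been scaled to a trimmed mean of 500.0. The 3' to 5' signal ratio was 0.822 in L-Lpcat3 KO and 0.810 in control for Gapdh and 2.28 in both for Actb. The 18 hybridization control probe sets, which report labelled transcripts added at hybridisation, had a median log2 ratio (L-Lpcat3 KO over control, as in all ratios here) of -0.13, and its part in the small differences below was not tested. Lpcat3 had a signal of 2198 in L-Lpcat3 KO and 5173 in control on its single named probe set, so that 42.5% of the control signal remained. The sources used here do not say whether this probe set lies in the deleted part. The median of all values, 86.6, served as the floor to which lower values were raised. Of 18193 named genes, 12290 reached the floor in at least 1 pool and are called measured. Hepatocyte markers were present, and all 14 measured ones except Ass1 had signals above 5000 in both pools, Ass1 having 268.2 in L-Lpcat3 KO and 310.7 in control. Of the 14, 12 had a log2 ratio below 0, against 48.8% of all measured genes. Their median was -0.14, with a summed signal of 355404 in L-Lpcat3 KO and 387133 in control. All 1084 measured genes with a mean signal above 5000 had a median of -0.073. The marker median was -0.004 after quantile normalization, -0.033 after loess and -0.25 after median centring. The part of signal level and scaling in the marker values was not tested. Fewer hepatocytes and less RNA per hepatocyte cannot be told apart in RNA of whole liver.

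The promoters of the factors are given first, because several of these factors are known to bind each other's genes. The bases before each annotated start were taken from RefSeq (GRCm38.p6), in which all 8 genes matched, with 12 start sites. Both strands of the 250 bases before each start were searched for 4 short motifs, TGTTTAC (forkhead), TTGCNNAA (C/EBP), CAAAGTCCA (HNF4) and ATCAATA (ONECUT). Hnf4a is shown at both start sites, which lie 40298 bases apart, and Foxa3 because these were the 2 factors with the lowest log2 ratios; capitals mark a motif match.
Hnf4a, upstream start site, chr2:163506607-163506856, + strand: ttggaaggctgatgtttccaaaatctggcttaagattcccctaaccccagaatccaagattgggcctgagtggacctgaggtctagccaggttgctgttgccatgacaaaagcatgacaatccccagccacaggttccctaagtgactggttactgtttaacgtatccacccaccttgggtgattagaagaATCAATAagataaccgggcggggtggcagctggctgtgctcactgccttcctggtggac
Hnf4a, downstream start site, chr2:163546905-163547154, + strand: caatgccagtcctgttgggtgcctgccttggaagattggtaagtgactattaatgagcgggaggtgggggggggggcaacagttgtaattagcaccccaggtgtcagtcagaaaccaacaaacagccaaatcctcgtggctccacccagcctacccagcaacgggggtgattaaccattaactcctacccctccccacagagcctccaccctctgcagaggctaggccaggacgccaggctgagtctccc
Foxa3, chr7:19023540-19023789, - strand: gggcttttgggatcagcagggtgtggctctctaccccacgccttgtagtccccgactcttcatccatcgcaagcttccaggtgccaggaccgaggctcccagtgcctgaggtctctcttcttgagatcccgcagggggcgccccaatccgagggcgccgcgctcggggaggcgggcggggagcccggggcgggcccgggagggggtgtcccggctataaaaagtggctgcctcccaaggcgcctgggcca
Among the other 9 start sites, 2 held a match, and these stretches are shown to place it.
Foxa2, first of 3 start sites, chr2:148047152-148047208, - strand: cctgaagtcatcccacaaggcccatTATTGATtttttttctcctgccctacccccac
Foxa1, chr12:57546221-57546277, - strand: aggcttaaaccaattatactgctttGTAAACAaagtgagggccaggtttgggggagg

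In these windows the upstream start site of Hnf4a held the ONECUT letters from base -59 to base -53 before the start. Foxa2 held them on the opposite strand from base -214 to base -208. Foxa1 held the forkhead letters on the opposite strand from base -141 to base -135. No match overlapped another. The remaining 9 start sites, including the downstream one of Hnf4a and that of Foxa3, held none of the 4 motifs. Over all 32851 promoter windows of this length, 1.86% held the ONECUT letters, 3.17% the forkhead, 9.56% the C/EBP and 0.384% the HNF4 letters. A match is a description of the sequence only, and binding was not measured.

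None of the 8 factors differed by 2-fold, or by 1.5-fold, between the pools. Among all measured genes, 3.40% reached 2-fold (2.70% higher, 0.700% lower) and 12.9% reached 1.5-fold (9.07% higher, 3.83% lower), so that a count of 0 among 8 genes is near the background. Taking for each gene the probe set with the highest mean signal on the log2 scale, 5 of the 8 factors were below 0, against 48.8% of all measured genes. Their log2 ratios ran from -0.55 for Foxa3 to 0.50 for Onecut1, with a median of -0.11, against 0.009 for all measured genes. Of the 15 probe sets 14 reached the floor, 10 of these were below 0, against 49.2% of all named probe sets, and their median was -0.17. None of the 14 reached 2-fold, against 3.16% of all named probe sets (2.36% higher, 0.791% lower), and none reached 1.5-fold, against 12.7% (8.23% higher, 4.45% lower). As a stand-in for measurement error, the SD of the ratios (log2) on different probe sets of a gene was 0.11 at signals above 5000, 0.17 from 1000 to 5000, 0.25 from 300 to 1000 and 0.39 below 300. This spread does not include differences between mice.

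**Figure D1:**
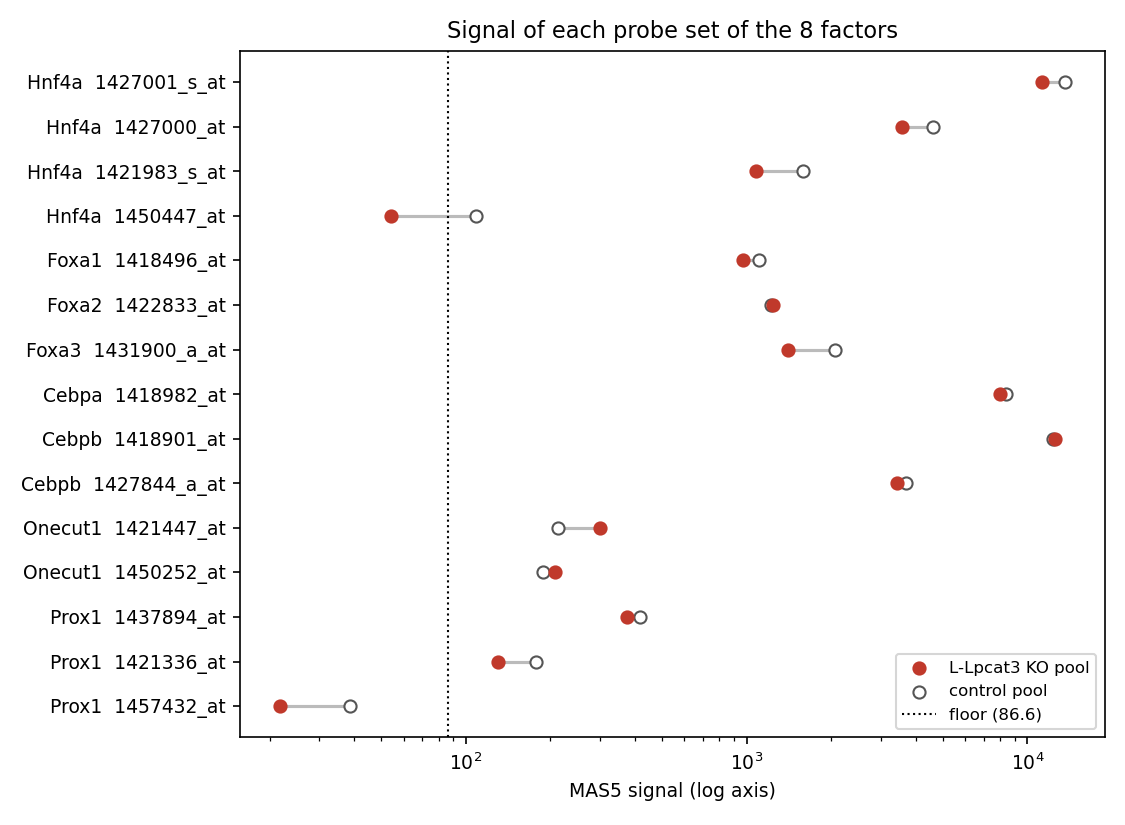
MAS5 signal (log axis) of the 15 probe sets of the 8 factors in the L-Lpcat3 KO pool (red) and the control pool (open); the dotted line is the floor of 86.6. All 4 Hnf4a probe sets and the Foxa3 probe set lie lower in L-Lpcat3 KO, both Onecut1 probe sets lie higher, and those of Foxa2, Cebpa and Cebpb lie close together.

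Hnf4a was lower in L-Lpcat3 KO liver on all 4 of its probe sets, by less than 1.5-fold on the 3 that were above the floor in both pools. On 1427001_s_at, the probe set that represents the gene, the signal was 11243 in L-Lpcat3 KO and 13659 in control, a log2 ratio of -0.28. On 1427000_at it was 3563 in L-Lpcat3 KO and 4601 in control (-0.37), and on 1421983_s_at it was 1082 in L-Lpcat3 KO and 1590 in control (-0.56). The size of the difference was thus not the same along the probe sets, but each of these 3 differed by more than the SD among probe sets at its signal. The last probe set, 1450447_at, lay near the floor, with 54.1 in L-Lpcat3 KO and 108.3 in control, so that only a bound of -0.32 or lower can be given. Of the 509 genes with 4 measured probe sets, 15.7% had all of them below 0. Of these 509, 7 genes (1.38%), Hnf4a itself included, had all of them at or below the Hnf4a limit of -0.28. That limit was set by Hnf4a itself, and its probe sets share annotated source sequences, so they are not independent readings. By the probe set that represents each gene, 15.8% of all measured genes had a lower log2 ratio than Hnf4a. By the same measure 38.1% lay at least as far from 0. The mean over the Hnf4a probe sets was -0.38, and 8.78% of genes had a lower mean. Which probe sets report transcripts from which start site was not determined, so the values cannot be assigned to the upstream or the downstream promoter shown above.

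Relative to hepatocyte markers the Hnf4a difference was smaller. Its log2 ratio lay 0.15 below their median (-0.15 after centring), and 2 of the 14 measured markers were lower still. The marker that was lowest was Tat, a tyrosine catabolism enzyme, with a signal of 8565 in L-Lpcat3 KO and 11579 in control (-0.43). Part of the markers themselves are targets of these factors, so they are not an independent yardstick.

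The 3 forkhead genes, whose proteins bind the same motif, had different log2 ratios. Foxa3, the FOXA gene most associated with the adult liver, had a signal of 1408 in L-Lpcat3 KO and 2059 in control. This log2 ratio of -0.55 was the lowest of the 8 factors. It was below that of all 14 hepatocyte markers, and 4.50% of all measured genes, or 3.02% of the 3174 genes of similar signal, were lower. It rests on a single probe set, so agreement within the gene cannot be checked. Foxa1 had a signal of 973.2 in L-Lpcat3 KO and 1105 in control (-0.18), close to the median of the hepatocyte markers. Foxa2, which with Foxa1 primes liver development, had 1237 in L-Lpcat3 KO and 1216 in control (0.024), a difference well within the SD of 0.17 among probe sets at that signal.

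**Figure D2:**
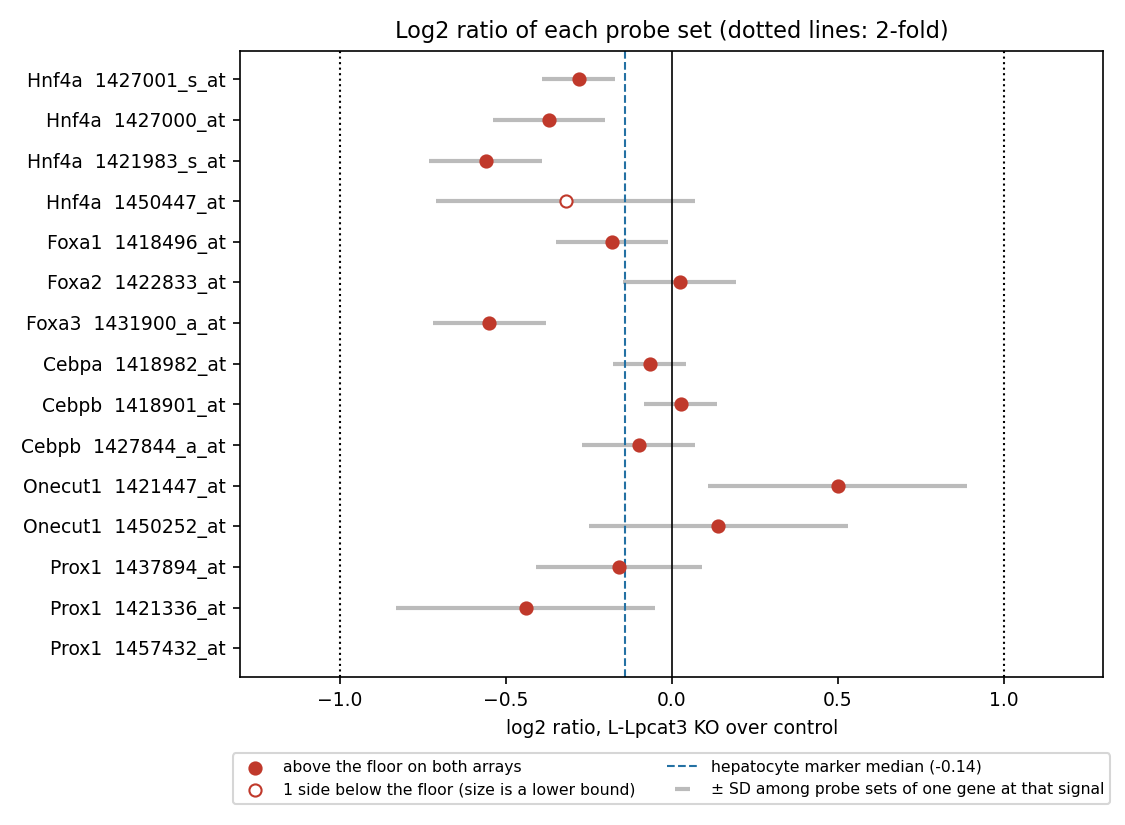
Log2(L-Lpcat3 KO / control) for each probe set, with grey bars for ± 1 SD among probe sets of the same gene at similar signal; the open point has 1 side below the floor, and Prox1 1457432_at, below the floor in both pools, has no point. The bars of Foxa3 and of 3 of the 4 Hnf4a probe sets lie wholly below 0 and below the hepatocyte marker median of -0.14, and no point reaches the dotted 2-fold lines.

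Both C/EBP genes were nearly equal between the pools. Cebpa had a signal of 8010 in L-Lpcat3 KO and 8387 in control (log2 ratio -0.066). Cebpb had 12577 in L-Lpcat3 KO and 12343 in control on 1418901_at (0.027), and 3429 in L-Lpcat3 KO and 3680 in control on 1427844_a_at (-0.10). All 3 values lay within the SD among probe sets at their signal, and 82.1% of measured genes lay at least as far from 0 as Cebpa and 92.9% as far as Cebpb. Cebpd, the inducible C/EBP family member of inflammation, stood apart from them in value. It had 1269 in L-Lpcat3 KO and 790.2 in control, and so lay at 0.68, while its other probe set lay at 0.10. Myeloid cells also express Cebpa and Cebpb, and markers of macrophages were higher in the same pool. All 15 measured of 16 were above 0, 8 of them by at least 2-fold. Of all measured genes, 48.8% were below 0 and 2.70% were at least 2-fold higher. The summed signal of the macrophage markers was 39896 in L-Lpcat3 KO and 18851 in control. The highest macrophage markers were Lyz2 (1.86), C1qb (1.62), C1qa (1.54), Marco (1.52), Cd68 (1.44) and C1qc (1.24). On their lowest probe sets C1qb lay at 0.73 and Marco at 0.55. The lowest marker was Cx3cr1 (0.19), and Itgam was below the floor in both pools. Adipocytes express Cebpa and Cebpb as well, and 4 of their markers were at least 2-fold higher. Cidec had 3659 in L-Lpcat3 KO and 683.6 in control, and Fabp4 had 3327 in L-Lpcat3 KO and 1006 in control. Adipoq had 314.5 in L-Lpcat3 KO and 38.9 in control, and Retn had 218.4 in L-Lpcat3 KO and 64.4 in control. Adipoq and Retn were below the floor in control, and Fabp4 lay at 0.11 on another of its probe sets. The paper reports that genes of lipid droplet formation were higher in these livers on western diet. Whether the 4 values come from adipocytes or from other liver cells was not tested. The 5 measured of 6 adipocyte markers had a summed signal of 46014 in L-Lpcat3 KO and 52869 in control. Lep, also of that list, was below the floor in both pools. Car3, which liver expresses strongly, had 38495 in L-Lpcat3 KO and 51076 in control (-0.41) and dominates the sum. The 4 Car3 probe sets lay between -2.15 and -0.41. The part of macrophages and adipocytes in the C/EBP values was not tested.

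Onecut1 had the highest log2 ratio of the 8 factors and lay above 0 on both of its probe sets. On 1421447_at the signal was 300.8 in L-Lpcat3 KO and 212.9 in control (log2 ratio 0.50), and on 1450252_at it was 207.1 in L-Lpcat3 KO and 187.6 in control (0.14). Both signals were low, where the SD among probe sets was 0.39, and of genes of the lowest signal range 79.7% had a smaller log2 ratio. Of the 3152 genes with 2 measured probe sets, 16.4% had both at or above the lower Onecut1 value of 0.14. All 14 hepatocyte markers had a lower ratio than Onecut1. Bile duct cells also express Onecut1, and of 9 biliary markers with a probe set, 3 reached the floor, with a summed signal of 459 in L-Lpcat3 KO and 439 in control. The defining duct keratins Krt19 (80.6 in L-Lpcat3 KO and 38.6 in control) and Krt7 (79.0 in L-Lpcat3 KO and 30.1 in control) were below the floor in both pools. Its paralogue Onecut2 differed in direction on its leading probe set, with 1364 in L-Lpcat3 KO and 1940 in control (-0.51), although another of its probe sets was at 0.16.

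Prox1 was slightly lower on both of its measured probe sets. The signal was 373.6 in L-Lpcat3 KO and 417.8 in control on 1437894_at (log2 ratio -0.16), and 130.5 in L-Lpcat3 KO and 177.5 in control on 1421336_at (-0.44). The third, 1457432_at, was below the floor in both pools, with 21.7 in L-Lpcat3 KO and 38.8 in control, and gives no ratio. The leading value was close to the hepatocyte marker median. Of genes with 2 measured probe sets, 12.4% had both at or below -0.16. Lymphatic endothelium also expresses Prox1, and 3 of its 4 measured markers were above 0, with a summed signal of 5555 in L-Lpcat3 KO and 4562 in control. Reln, with 3195 in L-Lpcat3 KO and 3201 in control, made up most of both sums. Pdpn, the most defining of these markers, had 153.2 in L-Lpcat3 KO and 97.0 in control, and Mmrn1 was below the floor in both pools. Lyve1, which sinusoidal endothelium shares, had 968.2 in L-Lpcat3 KO and 364.0 in control. Its log2 ratio was 1.41, and 0.56 on its other probe set. The part of these cells in the Prox1 value was not tested.

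**Figure D3:**
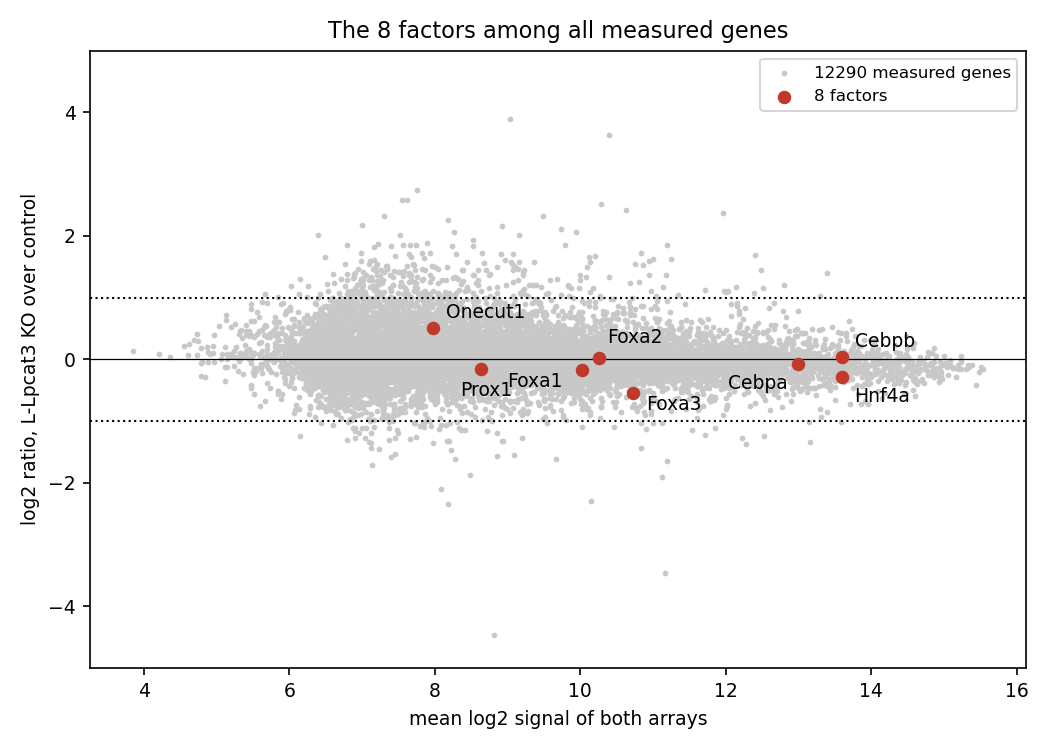
Log2(L-Lpcat3 KO / control) against mean log2 signal for the 12290 measured genes (grey) and the 8 factors (red); dotted lines mark 2-fold. Hnf4a, Cebpa and Cebpb lie at high signal, where the cloud is narrow, Onecut1 and Prox1 at low signal, where it is wide, and all 8 lie between -0.55 and 0.50.

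The wider set of liver-enriched transcription factors had a similar centre. Of 30 genes 25 were measured, 15 of them were below 0, none reached 2-fold, and the median was -0.12. Together with the 8 factors, 20 of 33 were below 0. The share of all measured genes below 0, 48.8%, is the background for this count and for those of the lists that follow. Lowest was Hhex, a homeobox gene needed for liver bud outgrowth, with a signal of 2913 in L-Lpcat3 KO and 4389 in control (-0.59). Tbx3, a T-box gene of hepatoblasts, had 817.2 in L-Lpcat3 KO and 1212 in control (-0.57, and -0.94 on its other probe set). Hlf had 827.2 in L-Lpcat3 KO and 1230 in control (-0.57, and -0.35 on its other probe set). Hhex, Hlf and Tbx3 thus lay beside Foxa3 at the low end. Cebpd (0.68, above) and the zinc finger gene Gata4, with 375.5 in L-Lpcat3 KO and 278.1 in control (0.43), were at the high end.

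Of the 18 measured partners and cofactors of the factors, 14 were below 0, the median was -0.19, and none reached 2-fold. With a floor at the 75th percentile their median was -0.078, against -0.15 for the other liver-enriched factors. Ppargc1a, the fasting coactivator of HNF4A, had a signal of 256.3 in L-Lpcat3 KO and 386.2 in control (-0.59), and values on its 5 probe sets lay between -0.71 and -0.033. The deacetylase gene Sirt1 had 479.5 in L-Lpcat3 KO and 686.1 in control (-0.52). At the other end, Smarca4, the ATPase of SWI/SNF chromatin remodelling, was at 0.43 but at -0.39 on its other probe set, and Hdac3, a corepressor deacetylase, was at 0.20. The orphan receptor gene Nr0b2 (SHP), a repressor of HNF4A and NR5A2, was at -0.30 and Nr5a2 at -0.41.

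Target genes of the factors were read beside them. These lists were assembled from textbook knowledge and overlap, so a gene can stand in several. Of 20 measured HNF4A targets, 14 were below 0, the median was -0.14, and 1 reached 2-fold: Cyp7a1, the rate-limiting enzyme of bile acid synthesis, with a signal of 3848 in L-Lpcat3 KO and 9080 in control (-1.24), and lower on its other probe set as well. Next was the clotting factor gene F7, with 2460 in L-Lpcat3 KO and 4200 in control (-0.77). The remaining targets spread around the hepatocyte marker median, and Cyp8b1, the sterol hydroxylase that follows in cholic acid synthesis, was higher, at 10785 in L-Lpcat3 KO and 8611 in control (0.32). The apolipoprotein gene Apob had the highest value of the list, 0.37, but was at -0.038 on its other probe set. Background for these counts was 48.8% of measured genes below 0, 0.700% at least 2-fold lower and 2.70% at least 2-fold higher.

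Among 10 measured FOXA targets the median was -0.09, and 1 reached 2-fold. Igfbp1, which encodes an IGF-binding protein of the fasted liver, had a signal of 5938 in L-Lpcat3 KO and 2746 in control (1.11). The other targets lay between -0.43 for Tat and 0.24 for Afp. The fetal gene Afp was close to the floor, at 120.7 in L-Lpcat3 KO and 102.3 in control. Of 5 fetal hepatocyte markers with a probe set, Dlk1 and Gpc3 were below the floor in both pools. Igf2 was at a bound of -0.58 or lower. Cd24a, which duct and immune cells also express, was at 1.09, and its 3 probe sets lay between 0.37 and 1.36. Of 6 exocrine pancreas markers 5 were below the floor in both pools, and Cela1 was at -0.73. The metabolic targets of C/EBP were the most even list: 9 of 11 measured were below 0, the median was -0.17, none reached 1.5-fold, and values ran from -0.43 for Tat to 0.049 for Alb. Otc, of the urea cycle, was at -0.35. Pck1, a gluconeogenic enzyme gene, had 17721 in L-Lpcat3 KO and 17530 in control (0.016).

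Acute phase genes, read beside Cebpb, were split. Of 15 measured, 8 were above 0 and 7 below, the median was 0.0098, and 2 reached 2-fold: Lcn2, an iron-siderophore binding protein, with 3734 in L-Lpcat3 KO and 1443 in control (1.37), and Orm2, an orosomucoid, with 2956 in L-Lpcat3 KO and 1372 in control (1.11). Macrophages and neutrophils also express Lcn2, and the macrophage markers above were higher in the same pool. The part of these cells in the Lcn2 value was not tested. Among the members below 0 were Fgb, a fibrinogen chain gene, at -0.28 and Itih4 at -0.37. Of 8 measured genes set down as ONECUT1 or PROX1 targets, 5 were below 0 with a median of -0.12, and Cyp7a1 was again the single gene past 2-fold. The bile acid uptake carrier gene Slc10a1 was at -0.40, and Hnf4a and Foxa2, whose promoter windows held the ONECUT letters, were at -0.28 and 0.024.

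**Figure D4:**
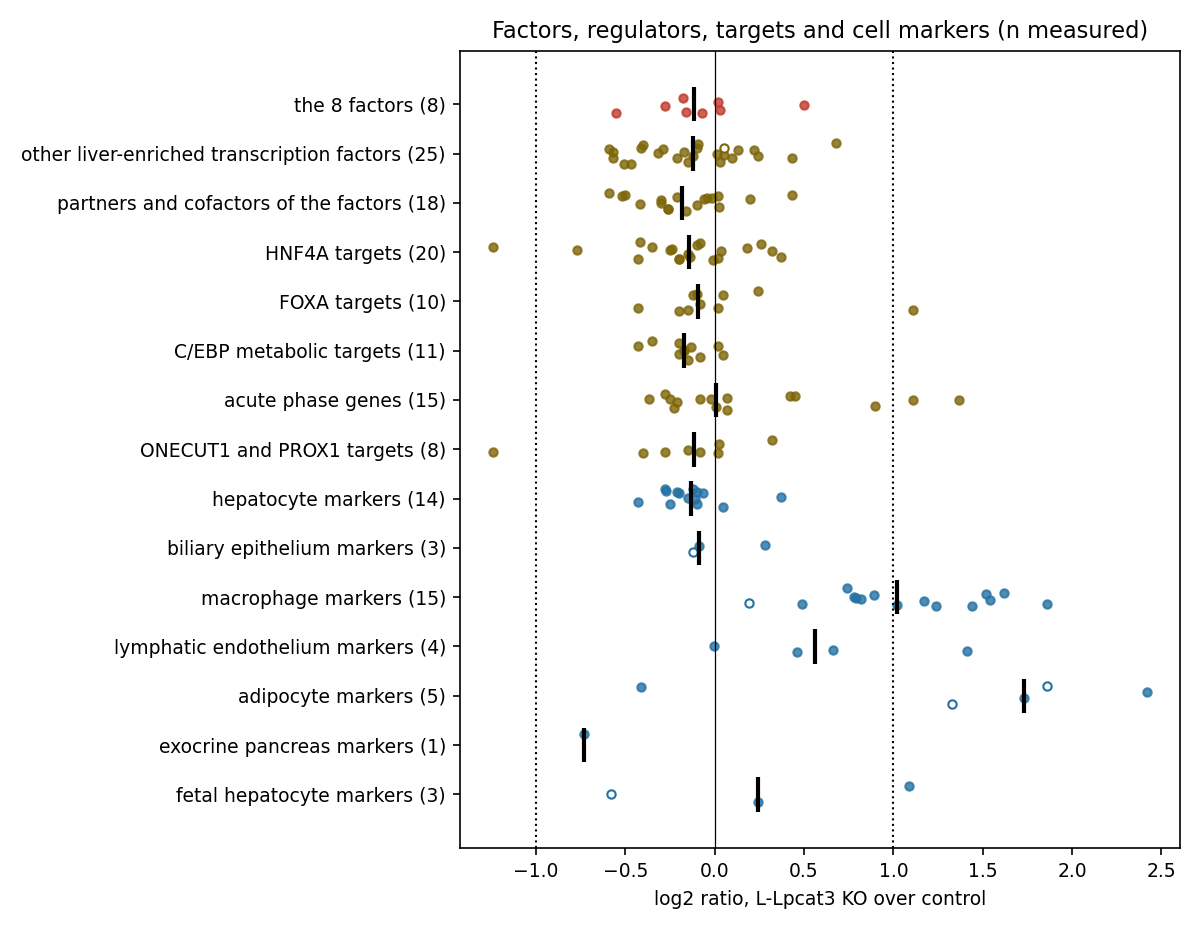
Each point is a measured gene, with log2(L-Lpcat3 KO / control) along the axis; open points have 1 side below the floor, black bars are medians, and red, brown and blue mark the 8 factors, the regulator and target lists, and the cell markers. The factors (median -0.11), the other liver-enriched factors (-0.12) and the hepatocyte markers (-0.14) have nearly the same centre, while the macrophage markers lie to the right, with a median of 1.02.

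The small differences of the factors moved with the processing. Hnf4a, Foxa1, Foxa3 and Prox1 were below 0 under all 10 alternatives. Values ran from -0.40 to -0.15 for Hnf4a, from -0.30 to -0.048 for Foxa1 and from -0.30 to -0.026 for Prox1. Those of Foxa3 ran from -0.66 to -0.41, and the lowest, after median centring, passed 1.5-fold. Alternatives that changed only the floor or the choice of probe sets left Foxa1 and Foxa3, with a single probe set each, unchanged. Onecut1 was above 0 under the 9 alternatives that measured it, from 0.32 to 0.63. Cebpa, Cebpb and Foxa2 changed sign between alternatives and have no settled direction. Alternatives that changed the fold threshold alone are not counted here. After centring on the hepatocyte markers the median of the 8 factors was 0.021.

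**Figure D5:**
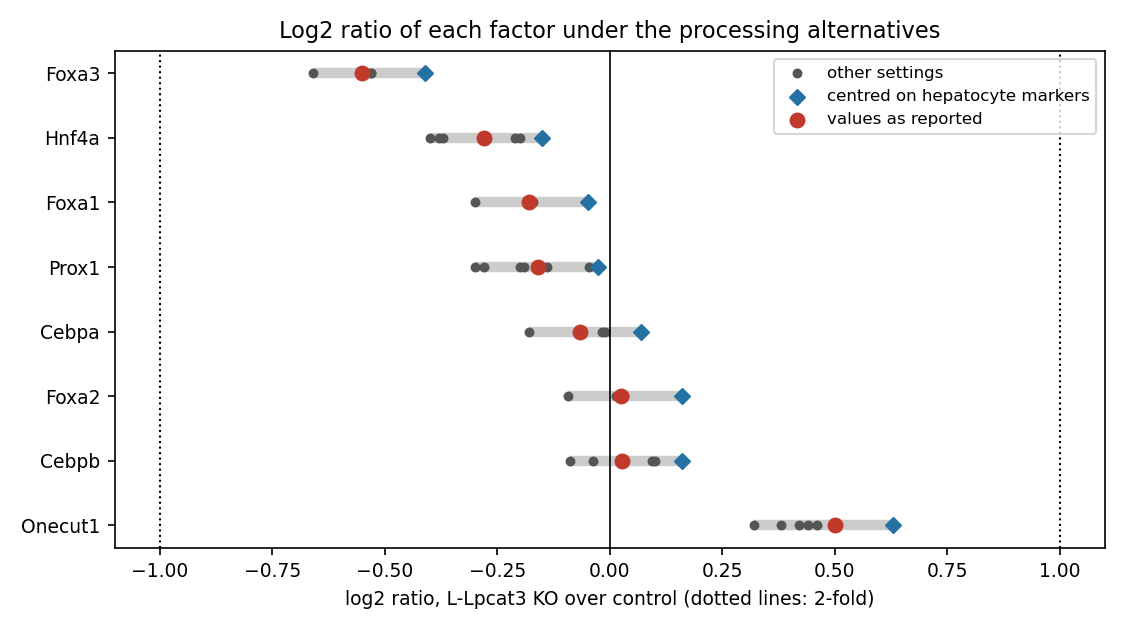
Log2 ratio of each factor as reported (red), after centring on the median of the hepatocyte markers (blue) and under the other processing alternatives (grey); the band spans the alternatives and dotted lines mark 2-fold. Foxa3 and Hnf4a stay left of 0 and Onecut1 right of it, while Cebpa, Foxa2 and Cebpb span 0.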

How the data were processed

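Values were the deposited signal intensities, which the authors computed with MAS5, per the submitters' processing notes, which give no version; their methods name GenespringGX for analysis. The values are linear. Detection calls were not used here. Of 45101 probe sets, 34945 had 1 gene symbol in the platform annotation, 932 with several symbols were not used, and 9211 had no name here. There were 64 array controls, some of them counted among the unnamed, and none stood for a gene. Symbols were updated through the gene identifier (RefSeq table, GRCm38.p6). Values below the median of all values were raised to it, and log2 ratios of L-Lpcat3 KO over control were taken per probe set. Each gene took the value of the probe set whose mean log2 signal was highest, and 2-fold was the threshold. No test was possible with 1 array per genotype.

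The 8 factors, 7 gene lists and 7 marker lists were chosen with earlier results of these data known. All probe sets of the factors are described. Of each list, genes past 2-fold are named (at most 6, by size), otherwise the highest and lowest. Cebpd, Onecut2, Tbx3, Nr0b2, Nr5a2, F7, Cyp8b1, Otc, Pck1, Afp, Slc10a1 and the markers named were picked with their values known. The calculation was tested on simulated data. Alternatives were median centring, quantile normalization, loess (span 0.4), no floor or one at the 25th or 75th percentile, a pseudocount of 50, the mean of probe sets, leaving out _s_at and _x_at probe sets, thresholds of 1.5-fold and 3-fold and, added after seeing the data, centring on hepatocyte markers. Python 3.11.15, numpy 2.4.6, pandas 2.3.3, statsmodels 0.14.6 and matplotlib 3.10.9 were used.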

Additional observations from a re-analysis of the deposited data

How the results depend on the processing

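Each pool is a single sample, so a difference between 5 L-Lpcat3 KO and 5 control mice could come from a few animals, and no paired analysis was possible because each genotype has 1 array. No factor reached 2-fold under any of the alternatives run. Of 135 comparisons of the factors' results with an alternative, 133 moved by less than the SD of 0.29 among probe sets of the same gene or kept their count. The exceptions were counts of factor probe sets at least 2-fold lower, which were 1 with a floor at the 25th percentile and 1 with no floor, against 0; this was Hnf4a 1450447_at, at 54.1 in L-Lpcat3 KO and 108.3 in control. The SD of 0.29 is larger than the size of each factor's log2 ratio, except those of Foxa3 (-0.55) and Onecut1 (0.50). Sign changes of Cebpa, Cebpb and Foxa2 therefore counted as no move. A count of 0 also could not rise when the threshold was raised to 3-fold. The tally of 133 is thus no check on the direction of the small ratios. With a floor at the 75th percentile Onecut1 was not measured. Of 139 list medians, 137 moved by less than that SD. The adipocyte median was 1.33 with the mean of probe sets, against 1.73, and the exocrine pancreas median, over few genes, was -0.43 with a floor at the 25th percentile, against -0.73.

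Over all genes, 332 were at least 2-fold higher and 86 lower. These counts were 1132 and 479 with a floor at the 25th percentile, 88 and 25 at the 75th, 654 and 242 with no floor, 1115 and 471 at 1.5-fold, and 55 and 11 at 3-fold. Median centring moved the median of all genes to -0.10 and the share of higher calls to 64.7%, against 79.4%. Median centring shifts all log2 values of an array by the same constant, and the floor and threshold set which genes can be called. What lies behind the difference between the array medians was not tested.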
